A study of Mus musculus with 8 samples.

Results

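Embryonic stem cells mutant for a subunit of Polycomb repressive complex 2 (PRC2) were compared, as a single set, with wild type embryonic stem cells of the mouse. The set held 6 arrays, 2 each from cells of the genotypes Ezh2-/-, Eed-/- and Jarid2-/-, and it was compared with 2 wild type arrays, so that all 8 arrays of the series were used. The mean of the 3 mutant group means was set against the wild type mean at each of 22626 probe sets, which gives each mutant the same weight. All 4 groups carry the same strain label, cj7, a mouse embryonic stem cell line used for gene targeting. Cells of every group were grown in serum medium with leukemia inhibitory factor, a cytokine that holds stem cells undifferentiated, and received no treatment. The labels name the genotype alone: the allele, the number of clones behind a genotype and the culture of each array are not stated in the sources used here. Each p-value therefore measures the spread between these arrays, which may be technical, and genotype and cell line cannot be told apart. The 3 mutants share the same 2 wild type arrays, so a value peculiar to those arrays and a change common to the mutants cannot be told apart either.

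PRC2 is a chromatin complex that methylates a lysine of histone H3, a mark under which many developmental genes are held silent in stem cells. EZH2 is its main catalytic subunit in embryonic stem cells, EED binds the methylated histone and is needed for the activity of the complex, and JARID2 is an accessory subunit that helps to bring the complex to chromatin. In mammals PRC2 is known to occupy promoters rich in CG dinucleotides, many of them of transcription factors that specify later lineages. Embryonic stem cells without these subunits are known to self-renew, with defects when they differentiate. The comparison asks which transcripts differ from wild type in the same direction in all 3 mutants.

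Values are the deposited signal intensities of Affymetrix expression arrays, and differences are log2 differences of the mutants minus wild type, each with its standard error (SE) from the linear model. Median signal lay between 323.6 and 352.4 on the 8 arrays, and 3 probe sets for a bacterial transcript, a negative control, read 23.76 to 147.91 on the mutant arrays and 32.87 to 117.15 on the wild type arrays. Where the mean of one side, mutants or wild type, read within that range, the log2 difference is not exact and a lower bound against the highest control is given beside it. That bound is for the mean signal, which the brightest mutant can carry, and not for the mean of the log2 values. Where both sides did, no size is read. Precision is limited by how few arrays there are. The targeted genes were read first. Ezh2 read 650.1 and 743 on the Ezh2-/- arrays, 4972 and 5049 on the Eed-/- arrays and 2926 and 3121 on those labelled Jarid2-/-, against 4599 and 4997 on the wild type arrays. Only the Ezh2-/- arrays and, to a smaller extent, the arrays labelled Jarid2-/- lay below both wild type arrays. Eed, at the brighter of its 2 probe sets, read 12213 and 12955 on the Ezh2-/- arrays, 3583 and 3638 on the Eed-/- arrays and 11242 and 10224 on those labelled Jarid2-/-, against 10875 and 9665 on the wild type arrays, with both Eed-/- arrays below the other 6. Jarid2, at the brightest of 3 probe sets, read 10534 and 10707 on the Ezh2-/- arrays, 8847 and 8027 on the Eed-/- arrays and 10219 and 8712 on those labelled Jarid2-/-, against 7977 and 7931 on the wild type arrays. None of the 3 Jarid2 probe sets was lower in the arrays labelled Jarid2-/-, but probe sets outside a deleted stretch cannot show its loss, and where the deletion lies is not stated. These arrays are therefore named by their label, and the main counts are given with and without them. Stem cell identity was checked with 10 markers of undifferentiated cells, whose summed signal was 119143 to 130183 on the mutant arrays, against 108615 to 114728 on the wild type arrays. Of these 10 markers 5 passed the threshold, all higher, and 5 did not, with Pou5f1, Sox2 and Nanog at log2 0.11, 0.06 and 0.05.

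Many transcripts differed between the mutants together and wild type, more often downward. Of 22626 probe sets, limma placed 1854 higher (8.19%) and 3840 lower (17.0%) at an adjusted p under 0.05, which is 5694 in all (25.2%). The changes were mostly small: 137 probe sets were higher and 231 lower by 2-fold or more. A mean over 3 mutants can be carried by a single mutant, so a change was called shared only where all 6 mutant arrays also lay on the same side of both wild type arrays. That held for 1199 probe sets that were higher (5.3%) and 2921 that were lower (12.9%), 4120 in all (18.2%) and 72.4% of those past the threshold. Without the arrays labelled Jarid2-/-, 2126 probe sets were higher and 3774 lower, and 1765 and 3255 of them lay on the same side in all 4 remaining mutant arrays. Array scaling set how the directions were balanced: of the probe sets past the threshold 32.6% were higher as deposited, 49.0% once quantile normalized and 46.1% once array medians were made equal. The median difference over all probe sets was -0.07 as deposited, 0.01 once quantile normalized and -0.02 with equal medians.

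At the level of genes, each read by its brightest probe set with a single symbol, 12393 were measured. Of these, 1040 were higher (8.39%) and 2175 lower (17.6%), together 3215 (25.9%), and 682 (5.5%) and 1609 (13.0%), together 2291 (18.5%), were shared by the definition above. The median shared change was log2 0.41 among the higher and -0.43 among the lower genes. A shared change of 2-fold or more in the mean was found for 57 higher and 93 lower genes, and in 22 higher and 36 lower genes the smallest of the 3 mutant differences was itself 2-fold or more. In 349 genes past the threshold the 3 mutants did not all differ from wild type in the same direction.

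A shared direction did not mean a shared size. The mutants were compared with each other by an F test that does not use the wild type arrays, and 5730 probe sets (25.3%) and 3313 genes (26.7%) were unequal among them. Among the genes with a shared change 26.9% were unequal among the mutants, against 42.7% of all genes past the threshold in the pooled comparison. The rule for a shared change leaves out many genes whose mutants diverge, so the lower share is partly built in, and it lies near the 26.7% of all genes. Of the variation between the 4 groups, summed over all probe sets, 38.1% ran between the mutants together and wild type, where an equal share for each of the 3 degrees of freedom would be 33.3%. Over the 11398 probe sets brighter than the median the share was 34.9%.

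How many probe sets passed depended on what the mutants were tested against. In the fit above the error is the spread between the 2 arrays of a genotype. When all 6 mutant arrays were given a single mean, so that differences among the mutants counted as error, 1442 probe sets passed (6.37%), 331 higher (1.46%) and 1111 lower (4.91%). When the cell line was a random block as well (correlation 0.505 within a line), 104 passed (0.46%), 46 higher (0.203%) and 58 lower (0.256%), and all of them were shared in the sense above. They held 79 named genes, among them Olig1, Olig2, Rpgrip1, Pmaip1, Hal, Col1a1, Col1a2, Igfbp3, Rian, Pdcl2 and 1 Meg3 probe set. A gene counts here if any of its probe sets passed. Sall4, Pi4k2a, Me2, Riok2, Riok3, Kif5b and Zfp991 are thus included, though their other bright probe sets did not follow, as described below. The block, called the line here, is the genotype group, since the labels name no clone. The last fit has 3 mutant groups against 1 wild type group, but its degrees of freedom count arrays and not groups. Its p-values may therefore be too small for a comparison between lines. Of the 20 largest shared changes, 14 passed in this last fit, 9 of 10 increases and 5 of 10 decreases, and of 71 genes named from the gene lists 9 did. Adjusted p-values of single genes below come from the first fit unless the block or the F test is named. The plot of the size of the mean change against its range over the mutants shows both kinds of gene.

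**Figure D1:**
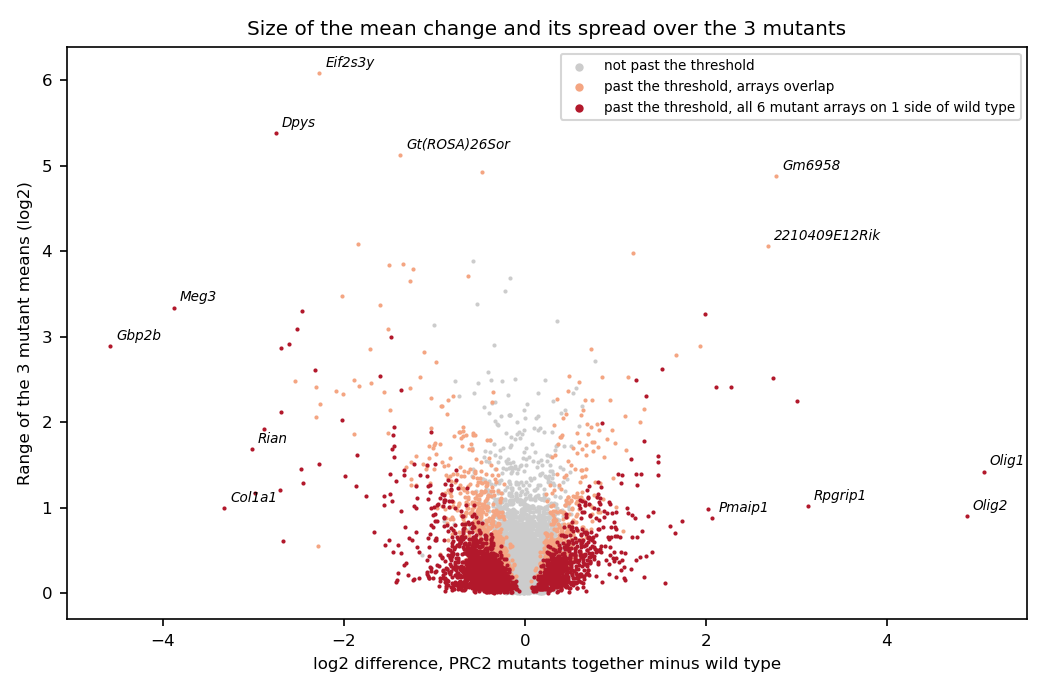
Each point is 1 of 12393 genes; the horizontal axis is the log2 difference of the PRC2 mutants together minus wild type and the vertical axis is the range of the 3 mutant means (log2). Dark red points passed the threshold with all 6 mutant arrays on 1 side of both wild type arrays, light orange points passed it with overlapping arrays, and grey points did not pass; Olig2 lies far to the right with a range of 0.90, while Eif2s3y lies at the top with a range of 6.08.

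The largest shared increase was that of Olig2 and Olig1, neighbouring genes of chromosome 16 that encode basic helix-loop-helix transcription factors of the oligodendrocyte and motor neuron lineages. Olig2 read 974 and 968 on the Ezh2-/- arrays, 1321 and 1400.3 on the Eed-/- arrays and 1858 and 1806 on those labelled Jarid2-/-, against 30.2 and 29.8 on the wild type arrays. The 6 mutant arrays lay far above the highest negative control and both wild type arrays lay near the lowest (log2 4.89, SE 0.07, adjusted p = 4.9e-09). Because the wild type signal is at background, the increase is given as at least 9.38-fold against the highest negative control. Olig1 read 1633 and 1734 on the Ezh2-/- arrays, 3807 and 3998 on the Eed-/- arrays and 4058 and 5072 on those labelled Jarid2-/-, against 57.7 and 100.4 on the wild type arrays (log2 5.07, SE 0.16, adjusted p = 4.2e-07), an increase of at least 22.9-fold against the same control. For both genes the Ezh2-/- arrays were the lowest mutants, and the means were unequal among the mutants (adjusted p = 0.0005 for Olig2 and 0.0016 for Olig1 in the F test). With the line as a random block Olig2 had an adjusted p of 0.00017 and Olig1 of 0.006.

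The Olig2 promoter is shown because Olig2 was the most clearly shared increase and PRC2 is known to act at promoters rich in CG. It is the RefSeq sequence from 250 bases before to 50 bases after the gene's start, chr16:91225300-91225599 of GRCm38.p6 on the plus strand, with each CG in capitals. The arrays did not measure chromatin, so these letters are a description of the gene and not of a binding site. The window holds 25 CG and is 65.0% G or C. Among all 32851 promoters of that RefSeq set, 94.6% hold at least 1 CG, which reads the same on both strands, and 81.6% hold fewer than Olig2.
Olig2: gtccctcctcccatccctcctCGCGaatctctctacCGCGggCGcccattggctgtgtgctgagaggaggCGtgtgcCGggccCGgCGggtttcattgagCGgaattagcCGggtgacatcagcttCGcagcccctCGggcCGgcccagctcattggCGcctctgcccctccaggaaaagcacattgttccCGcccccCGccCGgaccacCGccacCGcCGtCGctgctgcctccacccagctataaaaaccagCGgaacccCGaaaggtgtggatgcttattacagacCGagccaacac

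The next increases were in genes of unrelated functions. Rpgrip1, whose protein sits in the photoreceptor connecting cilium, read 4013 and 3921 on the Ezh2-/- arrays, 1960.4 and 1927 on the Eed-/- arrays and 3788 and 3942 on those labelled Jarid2-/-, against 349.7 and 332 on the wild type arrays (log2 3.13, SE 0.07, adjusted p = 5e-08), 8.74-fold higher. All 6 mutant arrays stood several-fold above both wild type arrays, but the gene has 4 probe sets and only 2 of them had the same sign, the other pair being dim. Rgcc, a regulator of the cell cycle, read 154 and 178 on the Ezh2-/- arrays, 764 and 941 on the Eed-/- arrays and 414 and 449 on those labelled Jarid2-/-, against 25.6 and 46.6 on the wild type arrays. Its wild type signal lay within the negative controls, which bounds the increase at no less than 3.27-fold (log2 3.01, SE 0.15, adjusted p = 5.1e-06), and the mutants were spread widely, with log2 1.83 for Ezh2-/-, 4.08 for Eed-/- and 3.13 for the arrays labelled Jarid2-/-. With the line as a random block its adjusted p was 0.091.

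Pmaip1 encodes NOXA, a BH3-only protein that promotes apoptosis and is a target of p53. It read 2719 and 2564 on the Ezh2-/- arrays, 4716 and 5047 on the Eed-/- arrays and 3419 and 4417 on those labelled Jarid2-/-, against 909.7 and 825 on the wild type arrays, 4.19-fold higher in the mutants (log2 2.07, SE 0.10, adjusted p = 3.9e-06). Every mutant array exceeded both wild type arrays by a wide margin, with the highest signals in Eed-/-. Hal encodes histidine ammonia-lyase, the first enzyme of histidine breakdown, and read 456 and 546 on the Ezh2-/- arrays, 447 and 357 on the Eed-/- arrays and 248 and 241 on those labelled Jarid2-/-, against 75.7 and 79.6 on the wild type arrays. The wild type signal was at background, so the increase is at least 2.59-fold (log2 2.03, SE 0.11, adjusted p = 6.8e-06), and the Ezh2-/- and Eed-/- arrays lay above the arrays labelled Jarid2-/-. Ptk2b, a calcium-responsive kinase of the focal adhesion kinase family, read 2007 and 2353 on the Ezh2-/- arrays, 1308 and 1341 on the Eed-/- arrays and 1209.6 and 1189 on those labelled Jarid2-/-, against 462 and 422 on the wild type arrays (log2 1.74, SE 0.09, adjusted p = 5.1e-06). The Ezh2-/- arrays were the highest and the other 4 mutant arrays lay close together.

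Niban1, a stress-responsive regulator of translation, read 1299 and 1406 on the Ezh2-/- arrays, 823 and 734 on the Eed-/- arrays and 802 and 854 on those labelled Jarid2-/-, against 290.5 and 315 on the wild type arrays (log2 1.61, SE 0.09, adjusted p = 7.8e-06), again highest in Ezh2-/-. Wfdc2, a secreted protein with whey acidic protein domains, read 2786 and 2693 on the Ezh2-/- arrays, 3727 and 3850.0 on the Eed-/- arrays and 4082 and 4911 on those labelled Jarid2-/-, against 960.0 and 1315 on the wild type arrays (log2 1.66, SE 0.12, adjusted p = 4.2e-05). No mutant array of either gene reached down to wild type. Msc encodes musculin, a basic helix-loop-helix repressor of muscle genes, and read 894 and 905 on the Ezh2-/- arrays, 1033 and 1015 on the Eed-/- arrays and 1129 and 936 on those labelled Jarid2-/-, against 433 and 343 on the wild type arrays (log2 1.31, SE 0.11, adjusted p = 0.00011). Its 3 mutant means differed by a range of only log2 0.19 and were not called unequal (F test, adjusted p = 0.46).

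**Figure D2:**
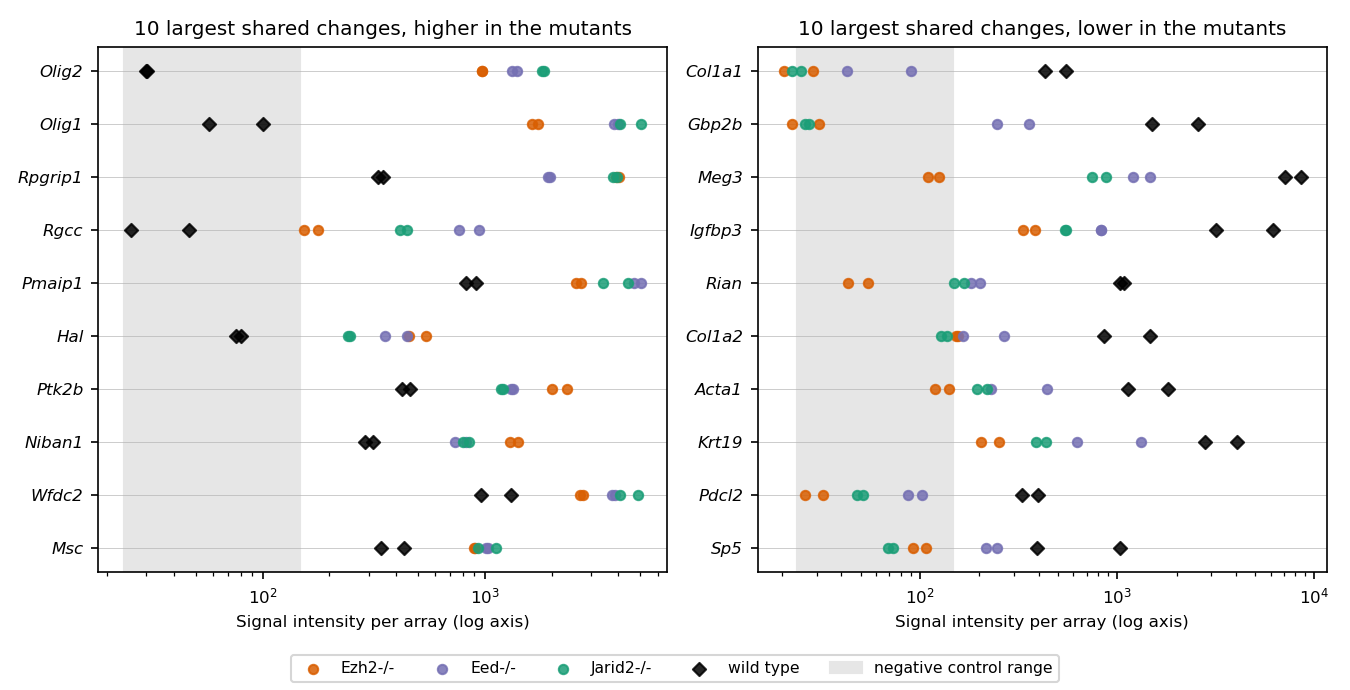
Signal intensity of every array on a log axis for the 10 higher and the 10 lower genes with the largest shared change, with circles for the 6 mutant arrays, diamonds for the 2 wild type arrays and a grey band for the range of the negative controls (23.76 to 147.91). In each row all circles lie on 1 side of both diamonds; the wild type signals of Olig2 and the Ezh2-/- signals of Col1a1 lie inside or just below the band.

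Among the largest shared decreases were 2 long non-coding RNAs of the imprinted Dlk1-Dio3 region on chromosome 12, which are made from the maternal copy. Meg3 read 125 and 110.1 on the Ezh2-/- arrays, 1475 and 1202 on the Eed-/- arrays and 875 and 744 on those labelled Jarid2-/-, against 7063 and 8553 on the wild type arrays at its brightest probe set. All mutant arrays were at least several-fold below wild type, the Ezh2-/- arrays lay within the negative controls, and the mean difference was log2 -3.88 (SE 0.12, adjusted p = 4.2e-07), with all 5 probe sets lower. The call of this probe set ended with the line as a random block (adjusted p = 0.13). Rian, which carries small nucleolar RNAs in its introns, read 54.4 and 42.9 on the Ezh2-/- arrays, 203 and 181 on the Eed-/- arrays and 167 and 148 on those labelled Jarid2-/-, against 1036 and 1080.0 on the wild type arrays (log2 -3.02, SE 0.10, adjusted p = 4.2e-07), with all 3 probe sets lower. The mutant mean and the Ezh2-/- arrays of Rian lay within the negative controls, so its decrease is at least 7.15-fold. For both RNAs the Ezh2-/- arrays were the lowest, at background, and the mutants were unequal (F test, adjusted p = 4.2e-06 for Meg3 and 4.8e-05 for Rian).

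Igfbp3, on chromosome 11, encodes a secreted protein that binds insulin-like growth factors. It read 385 and 333 on the Ezh2-/- arrays, 825 and 832 on the Eed-/- arrays and 547 and 545 on those labelled Jarid2-/-, against 6201 and 3157 on the wild type arrays, 7.90-fold lower in the mutants (log2 -2.98, SE 0.20, adjusted p = 3.9e-05). The 2 wild type arrays themselves differed by nearly 2-fold, yet the highest mutant array stayed well below the lower of them. The promoters of Igfbp3 and Meg3 are shown because both genes moved against the direction of Olig2. They are RefSeq sequences of GRCm38.p6 over the same 300-base window, with each CG in capitals: Igfbp3 at chr11:7213874-7214173 on the minus strand, and the first of 2 Meg3 promoters in the table at chr12:109540746-109541045 on the plus strand. The Igfbp3 window holds 37 CG, more than 94.4% of all promoters in the table, and that of Meg3 holds 13, more than 62.1%.
Igfbp3: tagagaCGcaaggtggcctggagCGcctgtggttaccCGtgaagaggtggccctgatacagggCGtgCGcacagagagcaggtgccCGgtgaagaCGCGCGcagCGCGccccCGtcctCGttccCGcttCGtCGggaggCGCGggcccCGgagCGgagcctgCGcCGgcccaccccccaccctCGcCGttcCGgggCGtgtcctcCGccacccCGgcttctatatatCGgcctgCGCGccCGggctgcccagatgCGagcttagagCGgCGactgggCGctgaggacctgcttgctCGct
Meg3: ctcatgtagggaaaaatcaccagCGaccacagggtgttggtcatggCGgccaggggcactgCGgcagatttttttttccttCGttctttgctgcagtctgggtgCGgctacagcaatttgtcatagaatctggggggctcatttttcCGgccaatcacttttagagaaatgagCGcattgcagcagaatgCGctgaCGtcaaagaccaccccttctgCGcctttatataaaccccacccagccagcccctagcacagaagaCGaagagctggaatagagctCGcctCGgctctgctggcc
The genes that rose and fell were not compared in CG content as groups, since only 79.5% of the shared higher and 77.3% of the shared lower genes had a promoter in the table.

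Both chains of type I collagen, the main fibrillar collagen of connective tissue, were lower. Col1a1 read 28.6 and 20.4 on the Ezh2-/- arrays, 42.9 and 89.9 on the Eed-/- arrays and 22.4 and 24.8 on those labelled Jarid2-/-, against 432 and 548 on the wild type arrays. The mutant signals lay within or below the negative controls, so the decrease is at least 3.31-fold (log2 -3.33, SE 0.20, adjusted p = 1.9e-05). Col1a2 read 155 and 153 on the Ezh2-/- arrays, 165 and 268 on the Eed-/- arrays and 137 and 128 on those labelled Jarid2-/-, against 856 and 1471 on the wild type arrays (log2 -2.67, SE 0.21, adjusted p = 7.9e-05), and its means were not called unequal among the mutants (F test, adjusted p = 0.21). These are markers of fibroblasts, and a bulk sample cannot tell fewer cells of a type from less RNA per cell. The summed signal of 23 fibroblast and feeder cell markers was 26326 to 43077 on the mutant arrays, against 48657 to 55571 on the wild type arrays. Of the 23 markers, 13 were lower, 0 were higher and 10 did not pass, the median was -0.62, and 5 read at or below the highest negative control on all arrays. Besides the collagen I chains, Thbs1, Vim and Col5a1 were lower (log2 -2.54, -1.33 and -1.45), while Dcn, Lum and Postn averaged within the negative controls in both mutants and wild type. The part of fibroblast RNA in the other decreases was not tested.

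Gbp2b, an interferon-induced GTPase, read 22.4 and 30.9 on the Ezh2-/- arrays, 247 and 359 on the Eed-/- arrays and 26.3 and 27.4 on those labelled Jarid2-/-, against 2573 and 1510.2 on the wild type arrays. The Ezh2-/- arrays and the arrays labelled Jarid2-/- were at background and the Eed-/- arrays were above it, so that the decrease is at least 13.8-fold in the mean (log2 -4.58, SE 0.20, adjusted p = 2.7e-06), and with the line as a random block the call ended (adjusted p = 0.082). Acta1, the alpha-actin of skeletal muscle, read 141 and 119 on the Ezh2-/- arrays, 231 and 442 on the Eed-/- arrays and 219.9 and 195 on those labelled Jarid2-/-, against 1810.0 and 1133 on the wild type arrays (log2 -2.71, SE 0.23, adjusted p = 0.00013). Krt19, a keratin of simple epithelia, read 253 and 204 on the Ezh2-/- arrays, 622 and 1317 on the Eed-/- arrays and 387 and 438 on those labelled Jarid2-/-, against 4054 and 2792 on the wild type arrays (log2 -2.89, SE 0.25, adjusted p = 0.00014). For both genes the Ezh2-/- arrays were the lowest and 1 Eed-/- array was the highest mutant, still below wild type, and both calls ended with the line as a random block (adjusted p = 0.06 for Acta1 and 0.11 for Krt19).

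Pdcl2, a phosducin-like gene known for its expression in male germ cells, read 32.2 and 26 on the Ezh2-/- arrays, 86.9 and 102 on the Eed-/- arrays and 48.1 and 51.2 on those labelled Jarid2-/-, against 329 and 397 on the wild type arrays. Its mutant signals were at background, which bounds the decrease at 2.45-fold (log2 -2.45, SE 0.11, adjusted p = 2.9e-06). Sp5, a zinc-finger factor and a known target of Wnt signalling, read 92.1 and 107 on the Ezh2-/- arrays, 217 and 247 on the Eed-/- arrays and 68.7 and 72.6 on those labelled Jarid2-/-, against 1029 and 392 on the wild type arrays (log2 -2.27, SE 0.28, adjusted p = 0.00075). The mutant mean lay within the negative controls, so the decrease is at least 4.80-fold. Its 2 wild type arrays differed by more than 2-fold, both exceeded every mutant array, and the call ended with the line as a random block (adjusted p = 0.16).

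The most even changes, in which the 3 mutants moved by nearly the same amount, were searched among shared changes of 2-fold or more whose brighter side exceeded the median signal of 338.1, by the range over the mutants relative to the mean change. On the side of increases they were Msc, Elovl6 and Tmem30b. Elovl6, an elongase of long-chain fatty acids, read 4403 and 4523 on the Ezh2-/- arrays, 4694 and 5309.6 on the Eed-/- arrays and 4252 and 4878 on those labelled Jarid2-/-, against 2110.3 and 2198 on the wild type arrays. The 3 mutants were higher by log2 1.05 for Ezh2-/-, 1.21 for Eed-/- and 1.07 for the arrays labelled Jarid2-/- (pooled log2 1.11, SE 0.07, adjusted p = 3.3e-05), and its second probe set rose too. Tmem30b, a subunit of lipid flippases, read 779.6 and 827 on the Ezh2-/- arrays, 884 and 939 on the Eed-/- arrays and 731 and 945 on those labelled Jarid2-/-, against 364 and 409.9 on the wild type arrays (log2 1.10, SE 0.11, adjusted p = 0.00025). No pair of mutants stood apart for either gene, with F tests at an adjusted p of 0.36 for Elovl6 and 0.56 for Tmem30b.

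On the side of decreases they were Rbl2, Calb2 and Cpe, all 3 on chromosome 8. Rbl2 encodes p130, a pocket protein related to the retinoblastoma protein, and read 218 and 218 on the Ezh2-/- arrays, 215 and 269.9 on the Eed-/- arrays and 202 and 248 on those labelled Jarid2-/-, against 556 and 732 on the wild type arrays (log2 -1.43, SE 0.13, adjusted p = 0.00018). Calb2, the calcium-binding protein calretinin, read 201 and 206 on the Ezh2-/- arrays, 243 and 215 on the Eed-/- arrays and 229 and 207 on those labelled Jarid2-/-, against 530.2 and 684 on the wild type arrays (log2 -1.41, SE 0.11, adjusted p = 6.9e-05). Cpe, carboxypeptidase E of peptide hormone processing, read 353 and 387 on the Ezh2-/- arrays, 312 and 380.1 on the Eed-/- arrays and 382 and 439 on those labelled Jarid2-/-, against 1017 and 1007 on the wild type arrays (log2 -1.40, SE 0.10, adjusted p = 4.7e-05). In each the 6 mutant arrays lay close together and below 530.2, the lowest wild type signal of Rbl2 and Calb2, while Cpe in wild type was higher still. Chromosome 8 is taken up below, since its genes were lower as a group.

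Other genes passed the pooled test although the mutants disagreed, and they show what the mean hides. Gm6958, a predicted gene, read 4669 and 4420.4 on the Ezh2-/- arrays, 149 and 129 on the Eed-/- arrays and 2348 and 2486 on those labelled Jarid2-/-, against 186 and 135 on the wild type arrays. Its pooled log2 of 2.78 came with log2 4.71 for Ezh2-/-, -0.17 for Eed-/- and 3.80 for the arrays labelled Jarid2-/-. 2210409E12Rik read 3046 and 2849 on the Ezh2-/- arrays, 1641 and 2822 on the Eed-/- arrays and 189.6 and 138 on those labelled Jarid2-/-, against 151 and 143 on the wild type arrays, so that the arrays labelled Jarid2-/- overlapped wild type near the top of the negative controls. The mean mutant signal, carried by Ezh2-/- and Eed-/-, was 12-fold the highest control, while the pooled log2 was 2.68. Rhox6, an X-linked homeobox gene of placenta and germ cells, read 65.6 and 71.8 on the Ezh2-/- arrays, 1019.9 and 1718 on the Eed-/- arrays and 464 and 315 on those labelled Jarid2-/-, against 129 and 151 on the wild type arrays, and it was above wild type in Eed-/- and the arrays labelled Jarid2-/-. Its Ezh2-/- arrays lay within the negative controls and its wild type arrays near their top. The mean mutant signal, carried mostly by Eed-/-, was 4.12-fold the highest control, while the pooled log2 was only 1.20.

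The same held for decreases. Eif2s3y, a Y-linked translation factor, read 20.4 and 13.1 on the Ezh2-/- arrays, 2268 and 2117 on the Eed-/- arrays and 522 and 482 on those labelled Jarid2-/-, against 1627 and 1567 on the wild type arrays. It was at background in Ezh2-/- and above wild type in Eed-/-, a range of log2 6.08. Gt(ROSA)26Sor, the locus often chosen for transgenes, read 999 and 1255 on the Ezh2-/- arrays, 23.4 and 10.7 on the Eed-/- arrays and 1157 and 1004 on those labelled Jarid2-/-, against 915 and 835 on the wild type arrays, low in Eed-/- alone (F test, adjusted p = 6.4e-07). Its pooled log2 of -1.38 turned to 0.325 (adjusted p = 0.087) without the Eed-/- arrays. Dpys, dihydropyrimidinase of pyrimidine breakdown, read 36.9 and 30.4 on the Ezh2-/- arrays, 601 and 614 on the Eed-/- arrays and 1779.8 and 2362 on those labelled Jarid2-/-, against 2409 and 2979 on the wild type arrays. It kept all 6 mutant arrays below wild type, with log2 -5.77 for Ezh2-/-, -2.11 for Eed-/- and -0.38 for the arrays labelled Jarid2-/-.

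Gene lists are described by counts, beside 8.39% of all genes higher and 17.6% lower and a median of -0.07 over all genes. Among 12 PRC2 subunits 2 were higher, 4 lower and 6 did not pass (median -0.14), and the lower ones included Ezh2 and Eed themselves (log2 -1.12 and -0.38). The Eed value was 0.18 without the Eed-/- arrays. Among 15 PRC1 subunits 3 were higher, 1 lower and 11 did not pass (median 0.01). Bmi1, a subunit that represses the Ink4a locus, was higher by log2 0.66 (SE 0.11, adjusted p = 0.0035), with log2 0.38 for Ezh2-/-, 1.93 for Eed-/- and -0.33 for the arrays labelled Jarid2-/-, and its call ended without the Eed-/- arrays. Yaf2, a binding partner of RING1 proteins, had a lower signal, at log2 -0.67 (adjusted p = 0.0049), and this call ended without the Ezh2-/- arrays.

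The developmental genes under PRC2 were mostly not past the threshold. Of 31 Hox genes, which pattern the head-to-tail axis, 3 were higher, 2 lower and 26 did not pass (median -0.07). Hoxa11 passed as higher (adjusted p = 0.0064), but read above the negative controls only on the Eed-/- arrays, at 178 and 292, and its call ended without them. Hoxb5 passed as lower (adjusted p = 0.0093) with all 8 signals within the negative controls. Of 113 other developmental transcription factors known from PRC2-bound promoters, 16 were higher, 9 lower and 88 did not pass (median -0.02), and 10 of the higher and all 9 lower ones were shared. Besides Olig1 and Olig2, Sox7 and Sox21 were on the higher side.

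Neural and ectoderm markers numbered 31, of which 4 were higher, 3 were lower and 24 did not pass, and all 4 higher ones were shared: Olig1, Olig2, Zic1 and Sox21, a SoxB2 factor of neural progenitors (log2 1.01, SE 0.08, adjusted p = 0.0001). Wild type Sox21 was at background, so its increase is at least 1.39-fold. The median of the neural list was -0.17, its lowest member lay at log2 -1.0, and 1 of its 3 decreases was shared. Among 28 markers of primitive and visceral endoderm 5 were higher, 7 were lower and 16 did not pass. The higher ones were Sox7, Apoa2, Lama1, Lamb1 and Apoe, of which the first 3 were shared, and the lower ones were Hnf4a, Col4a2, Sparc, Fst, Cited1, Krt8 and Krt18, of which Hnf4a alone was shared (log2 -0.57, adjusted p = 0.0021). Hnf4a is a transcription factor of visceral endoderm and liver. Sox7, a regulator of primitive endoderm, rose by at least 2.45-fold in the mean, with wild type at background. It differed by log2 3.42 for Ezh2-/-, 2.41 for Eed-/- and 1.01 for the arrays labelled Jarid2-/-. The latter read 152 and 78.5, within or just above the negative controls, so no size is read there. With the line as a random block its call ended (adjusted p = 0.2). For Apoa2, an apolipoprotein with wild type at background too, the mean mutant signal was 5.44-fold the highest control. Its pooled log2 was 1.99, with log2 3.53 for Ezh2-/-, 2.19 for Eed-/- and 0.26 for the arrays labelled Jarid2-/-. Lama1 encodes a laminin chain of basement membranes. Lama1 averaged 1866 ± 965 over the 6 mutant arrays, against 600.1 ± 35.3 over the 2 wild type arrays (SD, log2 1.47, SE 0.08, adjusted p = 8.8e-06), highest in Ezh2-/-. The median of the list was -0.14. Apoa2 read 1612 and 1639 on the Ezh2-/- arrays, 721 and 549 on the Eed-/- arrays and 160.4 and 148 on those labelled Jarid2-/-, against 125 and 126 on the wild type arrays, which places the arrays labelled Jarid2-/- close to wild type and at the top of the negative controls. The summed signal of the 28 endoderm markers was 25884 to 48037 on the mutant arrays, against 40345 to 46709 on the wild type arrays.

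Of 28 primitive streak and mesoderm markers 3 were higher, 4 were lower and 21 did not pass. Fgf8, a growth factor of gastrulation, read 62.2 and 40.0 on the Ezh2-/- arrays, 102 and 126 on the Eed-/- arrays and 49.4 and 36.9 on those labelled Jarid2-/-, against 238 and 201 on the wild type arrays (log2 -1.56, SE 0.15, adjusted p = 0.00023), below wild type on every mutant array. All 6 mutant signals lay within the negative controls, so the decrease is at least 1.48-fold. Of 22 trophectoderm markers 0 were higher, 4 lower and 18 not past, and Krt8 and Krt18, partner keratins of simple epithelia, were lower, at log2 -2.30 and -2.09, with overlapping arrays. Krt8 read 1362 and 872 on the Ezh2-/- arrays, 3649 and 9441 on the Eed-/- arrays and 1198 and 1132 on those labelled Jarid2-/-, against 12399 and 7642 on the wild type arrays. The Eed-/- arrays spanned a wide range and reached into wild type, while the other 4 mutant arrays were far below. Of 20 germline genes 7 were higher, 2 lower and 11 not past, but only 1 of the 7 was shared. The list medians were -0.23 for Ezh2-/-, 0.35 for Eed-/- and -0.16 for the arrays labelled Jarid2-/-. Of the 20 genes 15 were unequal among the mutants by the F test. Sycp1, a protein of meiotic chromosomes, read 162 and 133 on the Ezh2-/- arrays, 541 and 608 on the Eed-/- arrays and 88.8 and 88.9 on those labelled Jarid2-/-, against 75.4 and 76.3 on the wild type arrays (adjusted p = 6.7e-05). Only the Eed-/- arrays and 1 Ezh2-/- array exceeded the negative controls, and the mean increase is at least 1.83-fold.

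The machinery of DNA methylation was more often higher. Of 18 members 9 were higher, 1 lower and 8 did not pass, with a median of 0.21 and list medians of 0.29 for Ezh2-/-, 0.23 for Eed-/- and 0.11 for the arrays labelled Jarid2-/-. Dnmt3b, a de novo methyltransferase, averaged 12928 ± 1081 over the 6 mutant arrays, against 9739 ± 633 over the 2 wild type arrays (SD, log2 0.41, SE 0.04, adjusted p = 0.00038), and all 6 mutant arrays were above wild type. Dnmt3l, its catalytically inactive partner, averaged 9288 ± 3095 over the 6 mutant arrays, against 5349 ± 1124 over the 2 wild type arrays (SD, log2 0.75, SE 0.12, adjusted p = 0.0023), with log2 1.32 for Ezh2-/-, 0.53 for Eed-/- and 0.39 for the arrays labelled Jarid2-/-. The Dnmt3l call ended without the Ezh2-/- arrays.

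Of 29 naive pluripotency genes 10 were higher, 4 were lower and 15 did not pass (median 0.15). Klf5, a Krüppel-like factor of stem cell self-renewal, averaged 8316 ± 1743 over the 6 mutant arrays, against 4867 ± 169 over the 2 wild type arrays (SD, log2 0.75, SE 0.06, adjusted p = 9.4e-05). Klf2, a factor of the same family, averaged 7300.0 ± 2112 over the 6 mutant arrays, against 11429 ± 1020.3 over the 2 wild type arrays (SD, log2 -0.70, SE 0.05, adjusted p = 6.9e-05). Both were shared by all 6 mutant arrays, in opposite directions, and both calls ended with the line as a random block (adjusted p = 0.34 for Klf2 and 0.15 for Klf5). Klf2 lies on chromosome 8, whose genes were lower as a group. It differed by log2 -1.30 for Ezh2-/-, -0.46 for Eed-/- and -0.34 for the arrays labelled Jarid2-/-. The medians over bright genes of that chromosome, described below, were -0.30, -0.33 and -0.28. Zfp42, the gene of the pluripotency marker REX1, read 3714 and 3989 on the Ezh2-/- arrays, 17259.9 and 18659.9 on the Eed-/- arrays and 3726 and 3283 on those labelled Jarid2-/-, against 18004 and 18757 on the wild type arrays, and the Eed-/- arrays did not separate from wild type.

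Among 39 imprinted genes outside the Dlk1-Dio3 region 5 were higher, 10 lower and 24 did not pass (median -0.09). Grb10, an inhibitor of growth factor signalling, averaged 5511 ± 2449 over the 6 mutant arrays, against 2152 ± 227 over the 2 wild type arrays (SD, log2 1.24, SE 0.10, adjusted p = 7.6e-05), with all 3 probe sets higher and the highest signals in Eed-/-. Sgce, a sarcoglycan expressed from the paternal copy, read 142 and 136 on the Ezh2-/- arrays, 189 and 261 on the Eed-/- arrays and 148 and 188 on those labelled Jarid2-/-, against 522 and 518 on the wild type arrays (log2 -1.50, SE 0.13, adjusted p = 0.00012). Its 6 mutant arrays all lay below wild type. Of 11 measured genes of the Dlk1-Dio3 region and its neighbours, 2 were lower (Meg3 and Rian), 1 was higher and 8 did not pass. Of 8 measured genes from a list of Y-linked genes and Xist, 4 were lower and 4 did not pass, and 2 of the 4 lower ones were shared. The list medians were -0.77 for Ezh2-/-, -0.11 for Eed-/- and -0.4 for the arrays labelled Jarid2-/-.

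Genes of the actin cytoskeleton and smooth muscle had the largest share of members past the threshold among the lists: 17 of 20 were lower, 0 higher and 3 not past (median -0.70), and 9 of the 17 were shared. The list medians were -1.15 for Ezh2-/-, -0.24 for Eed-/- and -1.06 for the arrays labelled Jarid2-/-. Acta2, the alpha-actin of smooth muscle, read 332 and 294 on the Ezh2-/- arrays, 932 and 1999 on the Eed-/- arrays and 325 and 282 on those labelled Jarid2-/-, against 3959 and 2878 on the wild type arrays (log2 -2.69, SE 0.24, adjusted p = 0.00017). Tpm1, a tropomyosin, averaged 2764 ± 1619.8 over the 6 mutant arrays, against 6612 ± 1201 over the 2 wild type arrays (SD, log2 -1.45, SE 0.18, adjusted p = 0.0009). Vim, the mesenchymal intermediate filament protein, read 4733 and 5101 on the Ezh2-/- arrays, 4469 and 6081 on the Eed-/- arrays and 3228 and 2879 on those labelled Jarid2-/-, against 11789 and 9803 on the wild type arrays (log2 -1.33, SE 0.11, adjusted p = 0.00014), below wild type on every mutant array and at all 3 probe sets. The summed signal of the 20 actin and smooth muscle genes was 22695 to 34235 on the Ezh2-/- arrays and the arrays labelled Jarid2-/- and 42505 to 60482 on the Eed-/- arrays, against 54517 to 67800 on the wild type arrays, so the Eed-/- arrays overlapped wild type.

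Interferon response and antigen presentation genes gave 14 lower, 1 higher and 13 not past of 28 (median -0.29), and 8 of the 14 were shared. Gbp2, a paralog of Gbp2b, read 67.2 and 51.0 on the Ezh2-/- arrays, 591 and 876 on the Eed-/- arrays and 499 and 574 on those labelled Jarid2-/-, against 2179 and 1335 on the wild type arrays (log2 -2.47, SE 0.20, adjusted p = 9.7e-05), and close relatives can share probes. Ifit2, an interferon-induced protein with tetratricopeptide repeats, read 98.0 and 80.8 on the Ezh2-/- arrays, 111 and 93.6 on the Eed-/- arrays and 77.7 and 78.6 on those labelled Jarid2-/-, against 260.2 and 241 on the wild type arrays. All 6 mutant signals of Ifit2 lay within the negative controls and below both wild type signals (log2 -1.34, SE 0.10, adjusted p = 5.9e-05), a decrease of at least 1.69-fold. Ifitm3, an antiviral membrane protein, was the 1 higher gene (log2 0.32), while Mx1, Mx2, Ifit1 and Ifit3, classical interferon-induced genes, did not pass, at log2 -0.21, -0.03, -0.21 and -0.10.

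Of 24 cell cycle inhibitors and p53 targets 4 were higher, 7 lower and 13 not past (median -0.16). Pmaip1 was at the higher end, while Ccng1, a cyclin induced by p53, averaged 4809.6 ± 549 over the 6 mutant arrays, against 8071 ± 551 over the 2 wild type arrays (SD, log2 -0.75, SE 0.09, adjusted p = 0.0009). Of 23 stress and immediate early genes 3 were higher, 5 lower and 15 not past. Atf4, the transcription factor of the amino acid response, and Trib3, one of its targets, were shared increases of log2 0.62 and 0.75 (SE 0.05 and 0.11). Of 22 serine, glycine and glutathione genes 8 were higher, 4 were lower and 10 did not pass (median 0.21), and 4 of the 8 were shared. The list medians were 0.06 for Ezh2-/-, 0.01 for Eed-/- and 0.21 for the arrays labelled Jarid2-/-. For sterol synthesis 3 of 19 genes were higher and 1 lower, and for glycolysis and hypoxia 3 of 25 genes were lower and 0 higher. Of 43 ribosomal protein genes 8 were higher, 3 lower and 32 not past (median 0.03). Rps6 was the highest (log2 0.80) and Rps25 the lowest (log2 -0.70), and pseudogene copies make single members of this family uncertain. Genes of the 2-cell-like state gave 1 lower and 5 not past of 6.

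**Figure D3:**
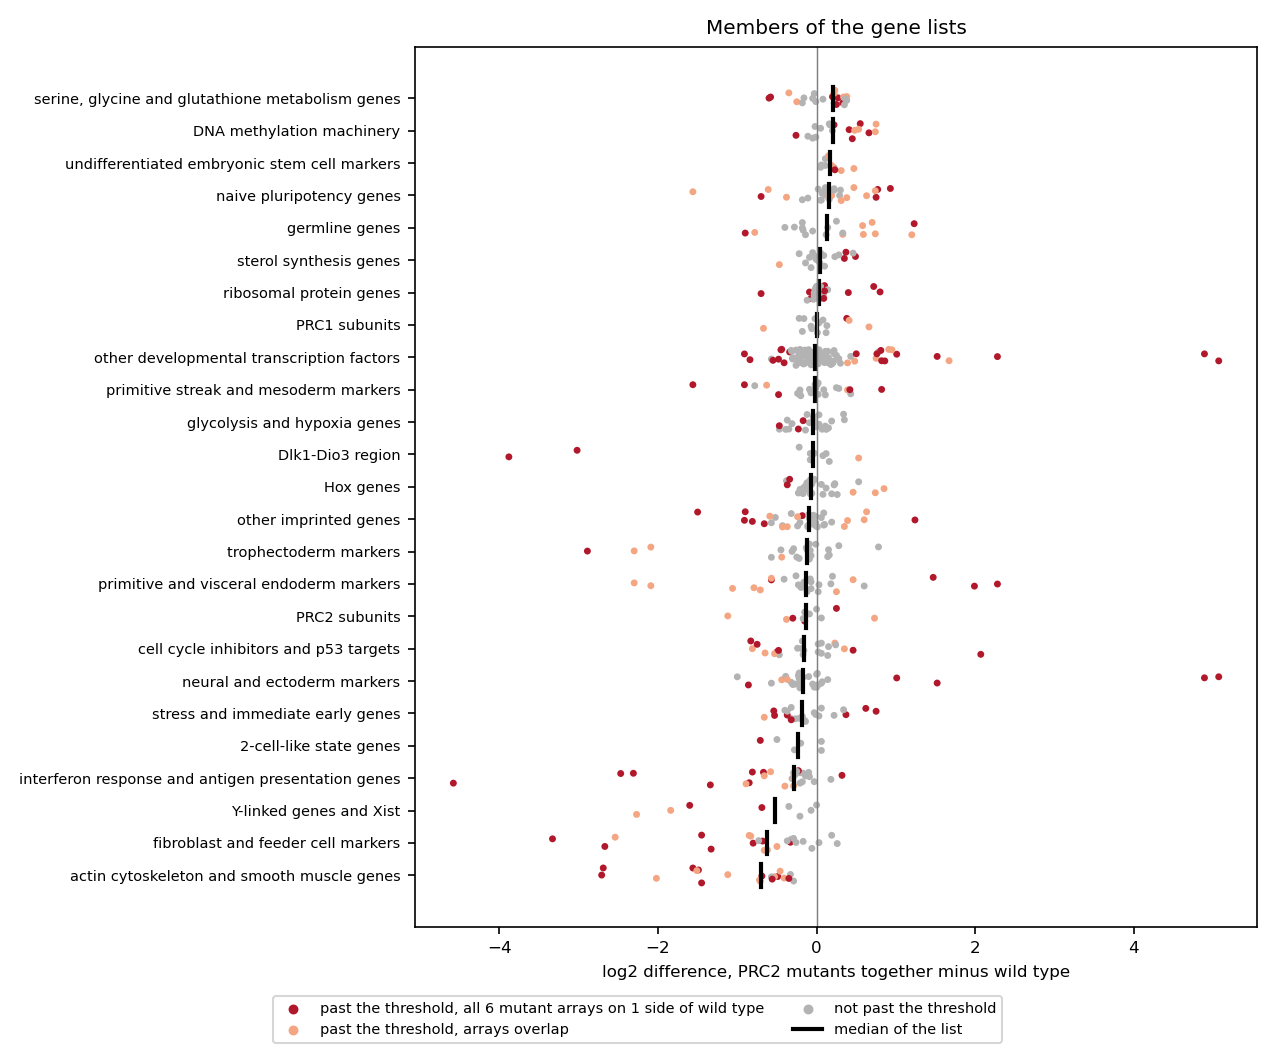
Each point is a gene of 1 of 25 lists, placed by its log2 difference of the PRC2 mutants together minus wild type; red points passed the threshold with all 6 mutant arrays on 1 side of wild type, orange points passed it with overlapping arrays and grey points did not pass. Black bars mark list medians, which lie between 0.21 for DNA methylation machinery and -0.70 for actin cytoskeleton and smooth muscle genes.

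Shared decreases were spread unevenly over the chromosomes. Over bright genes, those with a mean signal above the median of 338.1, the median difference from wild type was -0.31 on chromosome 8, -0.21 on chromosome 1, -0.17 on chromosome 19 and -0.12 on chromosome 11, while the other chromosomes lay between -0.10 and 0.08. These 4 chromosomes were picked after the medians were seen. On chromosome 8 the 3 mutants had nearly the same median, -0.30 for Ezh2-/-, -0.33 for Eed-/- and -0.28 for the arrays labelled Jarid2-/-, and 89.2% of its 389 bright genes were below 0. The shift ran along the whole chromosome: with its bright genes split in order into 4 equal groups, the groups had medians of -0.30, -0.31, -0.32 and -0.31. Both wild type arrays stood above the mutants there, by 0.29 and 0.31 in the median.

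Of 645 genes on chromosome 8, 244 were shared decreases (37.8%) and 3 shared increases. The share of shared decreases was 25.6% on chromosome 1, 25.7% on chromosome 19 and 15.7% on chromosome 11, and 6.05% to 17.4% on the other chromosomes. Together the 4 chromosomes held 22.9% of the genes, 43.6% of the shared decreases and 6.01% of the shared increases. Off them, 9.49% of genes were shared decreases and 6.71% shared increases, so that the excess of decreases over increases was smaller there. Of the 93 shared decreases of 2-fold or more, 34 were on the 4 chromosomes, among them Col1a1, Igfbp3, Acta1 and Krt19. Fibroblast markers and actin genes kept their direction off these chromosomes: of 19 fibroblast markers elsewhere 9 were lower (median -0.37), and of 14 actin and smooth muscle genes 11 were lower (median -0.63). Of 22 interferon and antigen presentation genes elsewhere 11 were lower. The other lists varied. Of the lower genes, 8 of 10 imprinted genes outside the Dlk1-Dio3 region, 5 of 7 endoderm markers and 3 of 3 neural markers lay elsewhere. In some lists few or no decreases remained. Off these chromosomes 0 of 15 serine, glycine and glutathione genes were lower. Only 1 was lower of 20 naive pluripotency genes, of 17 stress genes, of 20 streak and mesoderm markers and of 21 glycolysis and hypoxia genes. Copy number was not measured in these samples, and its part in these medians was not tested.

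**Figure D4:**
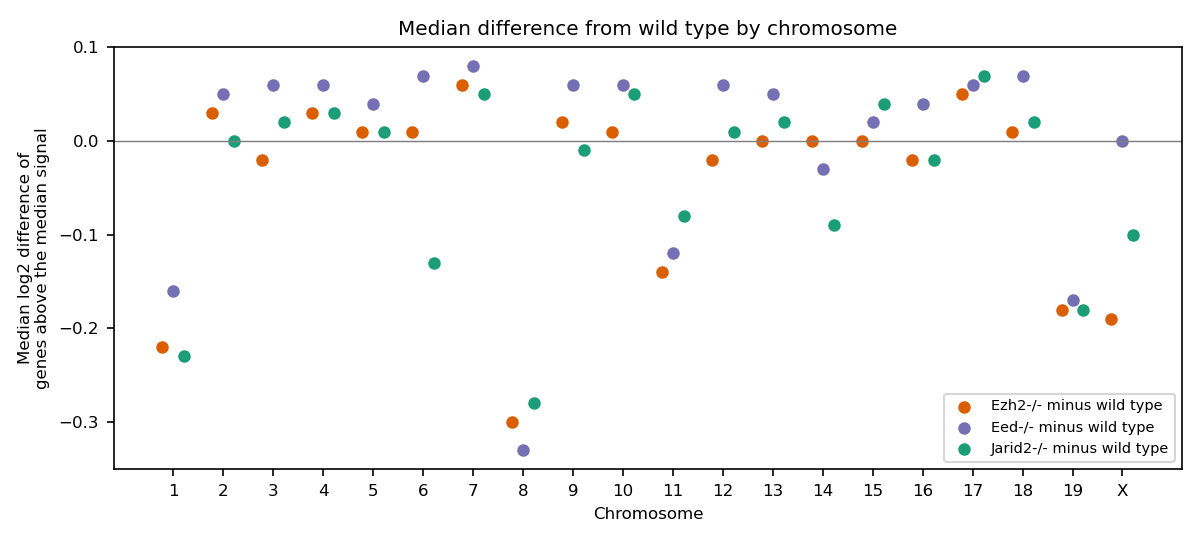
Median log2 difference from wild type of bright genes on each chromosome (horizontal axis), with 1 point each for Ezh2-/-, Eed-/- and Jarid2-/-, all against the same 2 wild type arrays. The 3 points lie together and below 0 on chromosomes 1, 8, 11 and 19, lowest on chromosome 8 at -0.28 to -0.33.

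Different probe sets of a gene did not always tell the same story, as bright genes with a large shared probe set show. Among genes with a shared probe set of 2-fold or more, 48 had another bright probe set. In 17 of them every other bright probe set either pointed the other way or moved by less than 25% of the largest, and these were 17 of 35 genes whose largest probe set was an increase and 0 of 13 whose largest was a decrease. These 17 were Dut, G3bp1, Kif5b, Me2, Nolc1, Opa3, Pgap6, Pi4k2a, Psmd6, Riok2, Riok3, Sall4, Sdc4, Sub1, Thyn1, Txnl4a and Zfp991, named after their values were seen. Sall4, a zinc-finger factor of stem cell self-renewal, is an example: 1 probe set averaged 6130.2 in the mutants and 1559 in wild type (log2 1.95), while the brighter probe set that stands for the gene averaged 11581 and 10110.2 (log2 0.19). Pi4k2a, a lipid kinase, rose by log2 1.66 at 1 probe set and stood at -0.27 at the other. Kif5b, a kinesin heavy chain, had 1 probe set at log2 1.25 and 4 others between 0.04 and 0.12. By contrast, the bright probe sets of Meg3 (-3.94, the others -3.88 to -3.25), Vim (-1.69, the others -1.60 to -1.33) and Elovl6 (1.11 and 0.92) moved together. Which transcript each probe set reads was not analysed here, and the part of transcript isoforms was not tested.

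**Figure D5:**
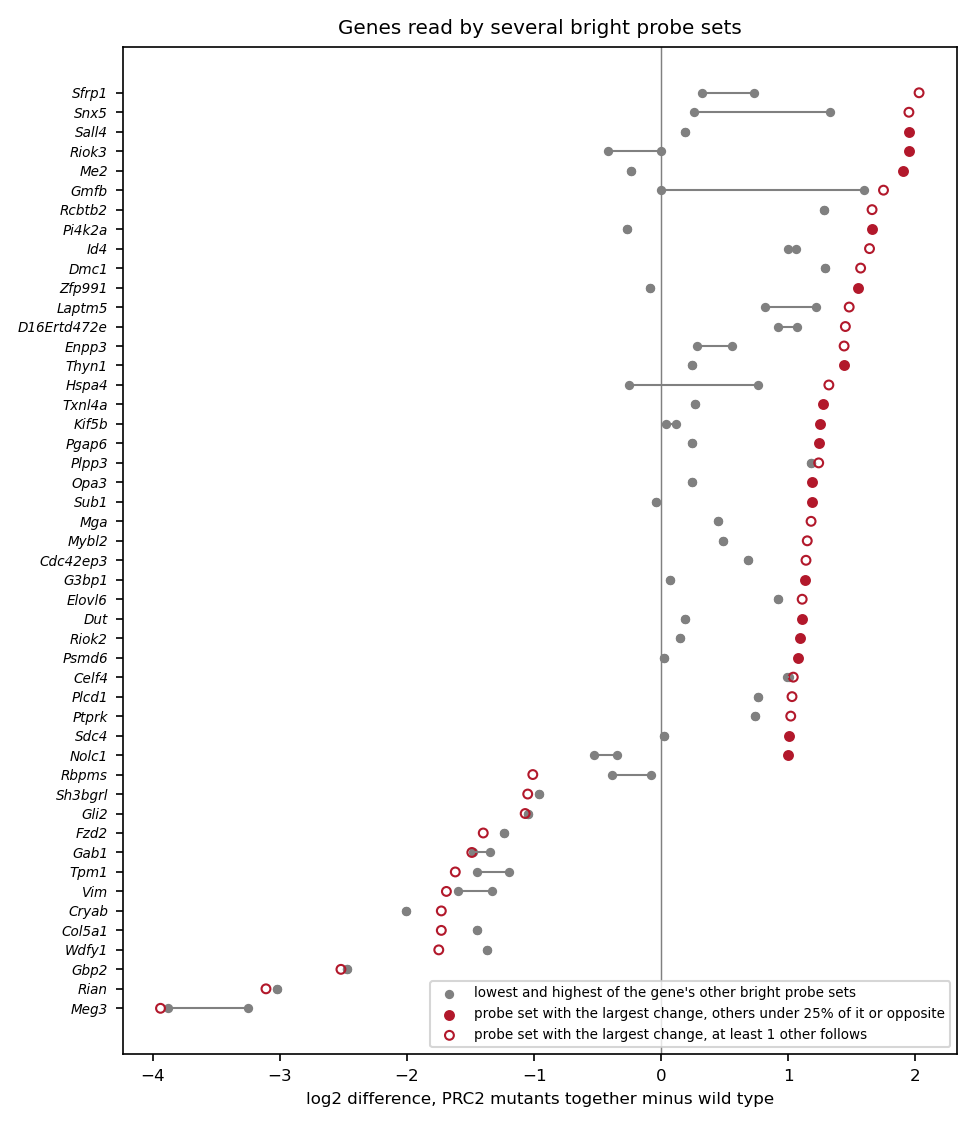
Log2 difference of the PRC2 mutants together minus wild type for 48 genes with several bright probe sets; red circles are the probe set with the largest shared change and grey points joined by a line are the lowest and the highest of the gene's other bright probe sets. Filled red circles mark the 17 genes whose other probe sets moved by less than 25% of the largest or the opposite way, which are 17 of 35 increases and 0 of 13 decreases.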

How the data were processed

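Total RNA of 8 mouse embryonic stem cell samples was labelled with biotin and hybridized to Affymetrix 3′ expression arrays, per the labels' protocols. The authors' deposited value table gives each probe set's signal intensity, not log-transformed. The normalization of that table is not stated in it. A second deposited table, whose header names dChip with model-based expression, an outlier check and no log transformation, has 12 columns that match no sample label and were not used. Of those, 8 equal the 8 value columns within 0.02.

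Of the probe sets, 64 controls were left out and 22626 tested. The log2 of each intensity plus 16 was used, with 1 as the lowest intensity and without another normalization. Symbols came from the platform annotation: 20380 probe sets had 1 symbol, 691 several and 1555 none, and 0 of 20351 symbols looked up by Entrez identifier changed. The brightest probe set stood for a gene. Chromosomes came from RefSeq of GRCm38.p6.

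limma 3.58.1 in R 4.3.3 (lmFit, eBayes with an intensity trend) fitted 1 mean per genotype with 4 residual and 5.02 prior degrees of freedom. The contrast was the mean of the 3 mutant means minus wild type, two-sided, adjusted by Benjamini-Hochberg over all probe sets, with a threshold of 0.05. An F test with 2 degrees of freedom compared the mutants. On simulated data with 22626 probe sets the contrast found 88% of 50 probe sets changed 1.5-fold, and 100% both of 100 changed 2-fold and of 50 changed 4-fold. The simulated noise was independent between arrays, with the spread between replicates, and these changes were equal in all mutants. Differences between genotypes were not simulated otherwise, apart from probe sets shifted in Eed-/- alone, so the recovery does not cover them.

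Genes were named by rule: the 10 largest shared changes per direction with a brighter side above 338.1, ranked by the smallest of the 3 mutant differences, the 3 most even and 3 most unequal per direction, up to 3 members per list with the smallest p, and Ezh2, Eed, Jarid2, Meg3 and Rian. The comparison, the 25 gene lists and these rules were chosen with earlier results of these data known. Alternatives were other scalings, other pseudocounts, a filter on dim probe sets, no trend, 1 mean for all mutant arrays, the replicate number as a block and leaving out each group or array. The fit with 1 mean was also run with the genotype group as a random block, at 1 correlation for all probe sets. A comparison of promoter CG content between gene groups was planned and is void, because under 80% of the genes had a promoter sequence.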

Additional observations from a re-analysis of the deposited data

Results flagged for a closer look

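Of the 69 genes described, 54 had unequal means in Ezh2-/-, Eed-/- and Jarid2-/- by limma's F test at an adjusted p under 0.05, where 26.7% of all genes did. The described genes were picked from these same data by size, by p-value and, for some, by the range among the mutants, so their share is not comparable with that of all genes. The test does not use wild type. The values are the ranges of the 3 mutant means on the log2 scale, and no explanation of them was tested. A range that includes a mutant at background, as for Sycp1, Hoxa11 and Meg3, is not exact.

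Among shared increases, the Olig genes, Lama1 and the others named lay above wild type on all 6 mutant arrays but by unequal amounts. The range over the mutants was 0.90 for Olig2, 1.42 for Olig1, 1.02 for Rpgrip1, 2.25 for Rgcc and 0.88 for Pmaip1. It came to 0.98 for Hal, 0.85 for Ptk2b, 0.79 for Niban1, 0.71 for Wfdc2 and 0.33 for Jarid2. Further ranges were 0.26 for Dnmt3b, 1.26 for Grb10, 0.64 for Klf5, 2.41 for Sox7 and 0.42 for Sox21. To these came 1.39 for Lama1, 3.27 for Apoa2, 2.49 for Sycp1, 0.59 for Atf4 and 1.12 for Rps6. The rest had 0.37 for Tsc22d1 and 0.24 for Epcam.

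Shared decreases were unequal as well. Their ranges were 1.00 for Col1a1, 2.89 for Gbp2b, 3.34 for Meg3, 1.18 for Igfbp3 and 1.69 for Rian. Next came values of 1.21 for Acta1, 1.92 for Krt19, 1.29 for Pdcl2, 1.51 for Sp5 and 5.38 for Dpys. The range stood at 0.62 for Sgce, 0.96 for Klf2, 1.14 for Fgf8, 0.77 for Vim and 2.12 for Acta2. Further values were 1.86 for Tpm1 and 3.30 for Gbp2.

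Genes past the threshold whose mutant and wild type arrays overlapped were unequal too. The mutants spanned 4.88 for Gm6958, 4.06 for 2210409E12Rik, 3.98 for Rhox6, 6.08 for Eif2s3y and 5.13 for Gt(ROSA)26Sor. Ranges of the next were 2.82 for Ezh2, 1.80 for Eed, 0.93 for Dnmt3l, 2.35 for Zfp42 and 2.41 for Krt8. Others spanned 2.36 for Krt18, 2.26 for Bmi1, 1.37 for Yaf2, 2.52 for Hoxa11 and 0.31 for Sall4.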

How the results depend on the processing

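With each array left out in turn, the probe sets past the threshold numbered 3374 to 5394, of which 1201 to 1798 were higher and 2173 to 3651 lower. The shared changes numbered 918 to 1397 higher and 1928 to 2864 lower, and the probe sets unequal among the mutants 2742 to 6668. Chromosome medians ran over -0.23 to -0.19 for chromosome 1, -0.33 to -0.29 for 8, -0.12 to -0.11 for 11 and -0.19 to -0.16 for 19. The lowest of the first counts, 3374, came without wild type replicate 2, and the lowest count among the mutants, 2742, without Ezh2-/- replicate 2. Without whole groups, 3427 probe sets passed without Ezh2-/- (1108 higher and 2319 lower), and those unequal among the remaining mutants were 2344 without Ezh2-/- and 2994 without Eed-/-. Leaving out dim probe sets gave 3715 past the threshold, 2124 lower, 1410 shared and lower, and a share of variation of 35.2%. Quantile normalization gave 1911 shared and lower. With 1 mean for all mutant arrays 1442 passed, 331 higher and 1111 lower, and with the line as a random block 104, 46 and 58, all of them shared. Without chromosomes 1, 8, 11 and 19, an alternative chosen after the data were seen, 2327 were lower and 1722 shared and lower.

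The medians of chromosomes 1, 8, 11 and 19 became -0.16, -0.26, -0.07 and -0.11 with equal array medians. Quantile normalization gave -0.29, -0.09 and -0.15 for chromosomes 8, 11 and 19, and a pseudocount of 64 gave -0.30 and -0.11 for 8 and 11. Without Ezh2-/- chromosomes 8 and 11 were at -0.32 and -0.10, without Eed-/- chromosomes 1 and 11 at -0.24 and -0.11, and without Jarid2-/- chromosome 11 at -0.14. All these medians stayed below 0, and the cause of each move was not tested.

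For the 97 genes named, 2038 values under 22 settings held 175 that lost the threshold and 4 that changed sign. The sign changes were Gt(ROSA)26Sor (0.325), Eed (0.18) and Hoxa10 (-0.173) without Eed-/-, and Ndrg1 (0.05) by the mean over its probe sets. Apart from the fits with 1 mean for all mutants, 76 of 97 genes past the threshold kept their call. Of 550 list medians 61 moved by more than the spread between replicates. Replicate numbers were shared across groups, but deviations of same-numbered arrays correlated by 0.411 for wild type with Jarid2-/-, 0.244 for Eed-/- with Jarid2-/- and 0.0075 to 0.0496 for the others, so the numbers were not taken to pair the arrays. With the replicate number as a block 6704 probe sets passed, 2288 higher and 4416 lower, with 1287 and 3101 shared and 7129 unequal among the mutants. The dChip table as input was not run, since its columns match no label.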

Other observations

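Of the 79 genes with a probe set that also passed with the cell line as a random block, a few not named by the rule are described here, chosen after their values were seen. Tsc22d1, a leucine zipper protein induced by transforming growth factor beta, was higher at all 6 of its probe sets. Its brightest probe set averaged 19346 ± 2215 over the 6 mutant arrays, against 10941 ± 366 over the 2 wild type arrays (SD, log2 0.81, SE 0.03, adjusted p = 2.3e-06), and the adjusted p with the random block was 0.024. Plpp3, a phosphatase of lipid phosphates at the cell surface, averaged 2216 ± 245 over the 6 mutant arrays, against 967 ± 86.7 over the 2 wild type arrays (SD, log2 1.18, SE 0.09, adjusted p = 6.9e-05), and its second probe set was higher too (log2 1.24). Epcam, the epithelial cell adhesion molecule of undifferentiated stem cells, averaged 10421 ± 793 over the 6 mutant arrays, against 6452 ± 149 over the 2 wild type arrays (SD, log2 0.69, SE 0.04, adjusted p = 7.8e-06). The 3 mutants differed from wild type by log2 0.69 for Ezh2-/-, 0.56 for Eed-/- and 0.81 for the arrays labelled Jarid2-/-. C1ql3, a secreted protein of the complement C1q family known from neurons, read 181 and 179 on the Ezh2-/- arrays, 174 and 191 on the Eed-/- arrays and 199 and 196 on those labelled Jarid2-/-, against 54.0 and 52.0 on the wild type arrays, with wild type at background, an increase of at least 1.26-fold, and 1 of 3 probe sets in this direction. Its adjusted p with the random block was 0.0016.

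On the side of decreases, Aprt, an enzyme of adenine salvage on chromosome 8, averaged 7129.7 ± 468 over the 6 mutant arrays, against 10858 ± 442 over the 2 wild type arrays (SD, log2 -0.61, SE 0.06, adjusted p = 0.00034), with both probe sets lower. The 3 mutants were close, with log2 -0.65 for Ezh2-/-, -0.62 for Eed-/- and -0.55 for the arrays labelled Jarid2-/-, beside a median of -0.31 over the bright genes of that chromosome. These values are of its brightest probe set, which did not pass with the random block (adjusted p = 0.055). Its other probe set did (log2 -0.73, adjusted p = 0.041 with the random block).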
